A study of Mus musculus with 4 samples.

Results

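The genes described here encode the machinery that copies protein-coding genes into RNA: the subunits of Mediator, the general transcription factors TFIIA, TFIIB, TFIIE, TFIIF and TFIIH, and the subunits of RNA polymerase II (Pol II). They were chosen by name, as every gene of the deposited table whose symbol begins with Med and a digit, with Gtf2a, Gtf2b, Gtf2e, Gtf2f or Gtf2h, or with Polr2 and a letter, names of pseudogenes left out. This gave 55 of the 24637 genes listed, of which 30 are Mediator genes, 13 general factor genes and 12 Pol II genes. The 3 families are described apart.

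RNA sequencing of messenger RNA compared wild-type (WT) mouse embryonic stem cells (ESCs) with ESCs lacking Taf4a, which encodes a subunit of TFIID, the factor that recognizes core promoters. The paper's methods describe 2 replicates and 2 independent lines for each genotype, taken here as 1 library per line, which the labels do not state. The lines came from blastocysts of heterozygous crosses and were kept on embryonic fibroblast feeders with LIF. The knockout is a null allele present in all cells of the line from its derivation. Both genotypes were driven towards cardiomyocytes in the same way, for 5 days as floating embryoid bodies (EBs) and 9 further days on gelatin. The paper's methods describe no sorting of these cells. The libraries held between 21732746 and 27733034 reads counted on genes.

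In the textbook account, TFIID and TFIIA settle on a promoter, TFIIB joins them to Pol II, TFIIF arrives with the polymerase, and TFIIE brings TFIIH, which opens the DNA and phosphorylates the polymerase tail. Together they form the preinitiation complex (PIC). Mediator is the large assembly that carries signals from activators on enhancers to this complex, with a head and a middle module that touch the polymerase, a tail that touches activators, and a separable kinase module. Most of these proteins are needed in every dividing cell, and their genes are expressed in ESCs and in heart cells alike.

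The 100 bases that precede the annotated start of Polr2a, Gtf2a1 and Polr2l are shown because these are the members with the largest differences between genotypes. The sequences are those of RefSeq on GRCm38.p6, 5′ to 3′ along the gene, and capitals mark TATAAA, the letters of a TATA box, GGGCGG, the core of a GC box, CGGAAG, the core bound by ETS factors, or CCAAT, or the reverse complement of any of them. All 3 lie on the minus strand, at chr11:69758634-69758733 for Polr2a, chr12:91590488-91590587 for the first of 2 annotated starts of Gtf2a1, and chr7:141475154-141475253 for Polr2l.
Polr2a: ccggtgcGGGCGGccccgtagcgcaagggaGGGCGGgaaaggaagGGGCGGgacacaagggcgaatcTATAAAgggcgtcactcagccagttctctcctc
Gtf2a1: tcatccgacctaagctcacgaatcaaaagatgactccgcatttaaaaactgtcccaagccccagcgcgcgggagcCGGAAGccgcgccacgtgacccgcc
Polr2l: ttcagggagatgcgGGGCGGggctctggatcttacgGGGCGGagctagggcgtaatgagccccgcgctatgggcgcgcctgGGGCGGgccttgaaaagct

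The Polr2a promoter has the letters of a TATA box beginning 33 bases before the start and 3 copies of the GC box core GGGCGG. The Gtf2a1 and Polr2l stretches have no TATAAA. Over the 250 bases before each start, searched on both strands, 47 of the 55 members had an entry, with 54 starts between them. TATAAA was found before 12.96% of these starts and before 12.4% of all 32851 starts annotated in the genome. CCAAT was found before 31.5% of member starts and 33.8% of all starts. GGGCGG, by contrast, preceded 57.4% of member starts and 32.7% of all starts, and CGGAAG preceded 33.3% and 13.6%. These are matches of letters and were not tested as binding sites.

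Taf4a, the targeted gene, stood at 889 (replicate 1) and 678 (replicate 2) normalized counts in WT, against 1722 and 1799 in the libraries labelled Taf4a-/-, here also called mutant-labelled. Values are always given in this order, replicate 1 first. A normalized count is the number of reads on a gene after division by a factor for the depth of the library. The gene-level value was thus higher where the label gives the knockout (log2 difference 1.18, standard error 0.16, adjusted p = 0.00569 from limma). It sums all exons and does not set apart the deleted ones, so it is no check of the labels, and the genotypes are given as labelled. The cultures also differed in what they contained. All 13 of 13 cardiomyocyte markers were lower in the mutant-labelled libraries, with summed normalized counts of 34279 and 31876 in WT against 3735 and 3530, and 9 of 10 markers of pluripotent cells were higher, with sums of 5344 and 1928 against 16833 and 19349. The 10 of 10 macrophage markers fell from sums of 11244 and 13426 to 195 and 227, with C1qa at 0 in both libraries, and the 10 of 10 visceral endoderm and liver markers fell from 91622 and 78610 to 1606 and 988, with Alb at 0. Of 8 fibroblast and matrix markers 7 were lower, with sums of 429319 and 596621 in WT and 48130 and 60341 in the mutant-labelled libraries, and the 5 germ cell markers tested, of 6 listed, were higher. In bulk cultures, fewer cells of a type and less RNA per cell cannot be told apart. The part of these shifts in the differences of the transcription genes was not tested.

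All tests were made with limma on log2(normalized counts + 1) over 16926 genes with a mean of at least 10, and a gene was called at an adjusted p under 0.05. With 2 libraries per genotype, taken as 1 per line, the p-values measure only the spread between these lines. Of all genes tested, 11.3% were called higher and 17.3% lower in the mutant-labelled libraries, and the median log2 difference was -0.01. Of the 55 members, 53 passed the filter, 11 (20.8%) were called higher and 0 were called lower. Without adjustment, 19 of the 53 members were higher and 0 lower at a p under 0.05, where 18.8% of all genes were higher and 23.7% lower. Limma's voom on recovered reads likewise called 0 members lower, and over all genes it called 10.3% higher and 16.3% lower. The median of the 53 log2 differences was 0.22, and 41 of them were above 0. However, the sign of 8 differences within 0.1524 of 0 turned under another scaling or without 1 library. Both mutant-labelled libraries stood above both WT libraries for 33 members, against 34.5% of all genes, and below them for 3 members, against 36.6% of all genes.

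**Figure D1:**
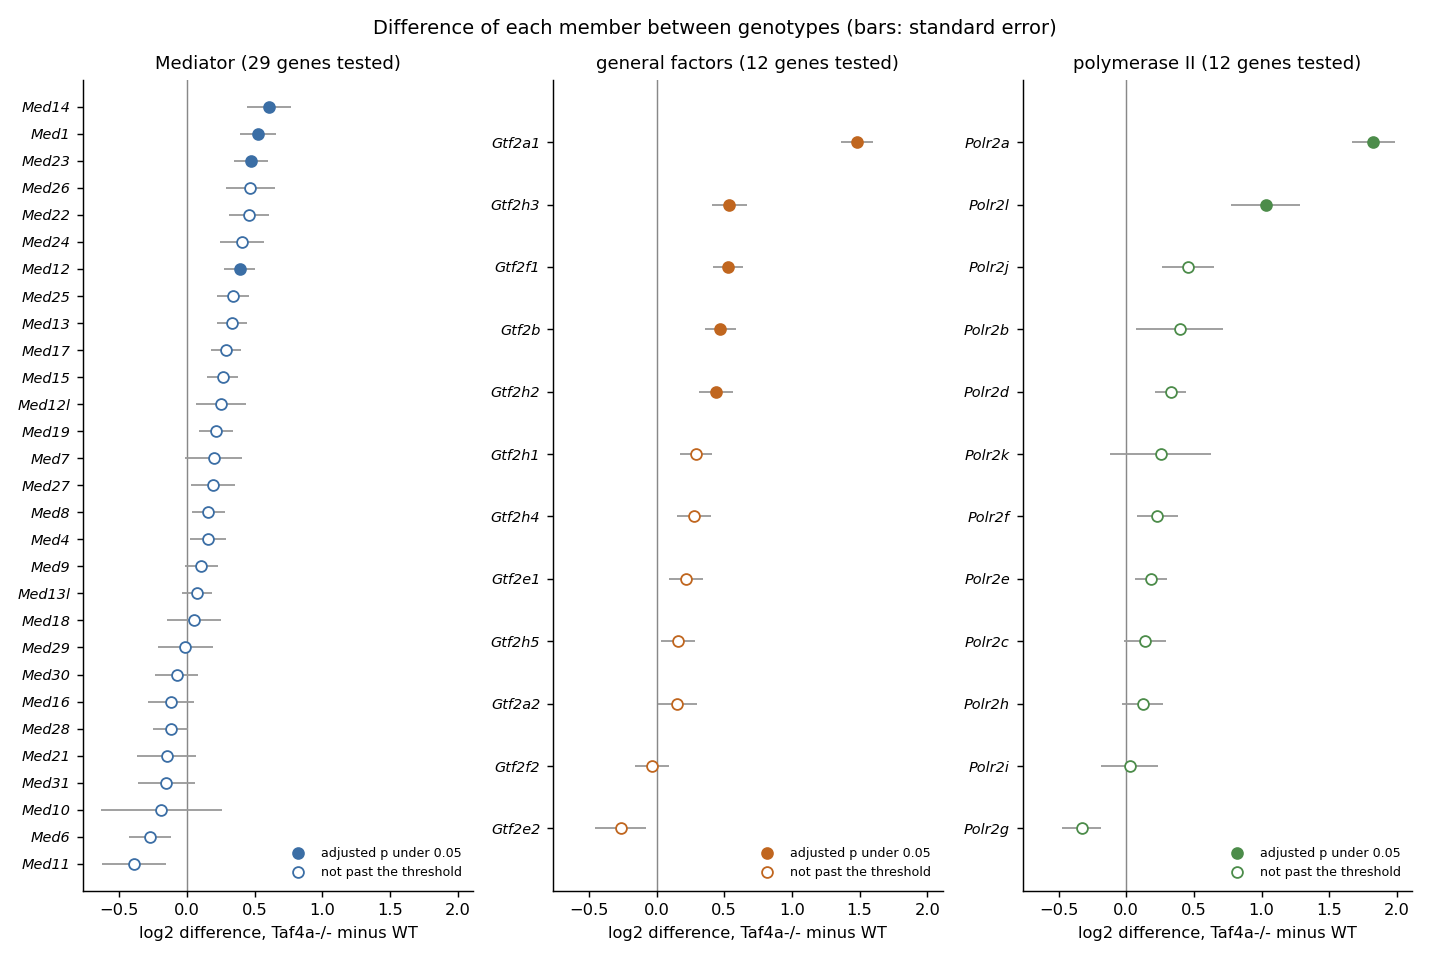
Log2 difference of each of the 53 members tested, Taf4a-/- minus WT, with its standard error as a bar, in 3 panels by family. Filled points passed an adjusted p of 0.05 in limma, all of them to the right of 0, and Polr2a at 1.83 and Gtf2a1 at 1.48 stand far from the other members of their families.

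Among the Pol II genes, Polr2a rose 3.53-fold, while 1 of the genes of the other 11 subunits passed the test. Polr2a encodes the largest, catalytic subunit, which carries the repeated tail that TFIIH and other kinases phosphorylate. In NCBIM37 (mm9) it occupies bases 69547499 to 69572139 of chromosome 11, minus strand. The WT libraries had 9241 and 7580 normalized counts and the mutant-labelled libraries had 31386 and 28069. The genotypes were far apart. The log2 difference was 1.83 (standard error 0.16, adjusted p = 0.00154 from limma). Polr2a was called in every one of the 10 other settings tried and with any 1 of the 4 libraries left out, where its log2 difference ranged from 1.68 to 1.97. The median of the 1424 genes tested on chromosome 11 was 0.09. Against each gene's mean over the libraries, the median of this chromosome was 0.14 in mutant-labelled replicate 1 and -0.03 in replicate 2, and -0.03 and -0.04 in WT. On this chromosome 8 members were tested, Polr2a, Med1, Med7, Med9, Med11, Med13, Med24 and Med31. The part of these shifts in their values was not tested.

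Polr2a alone supplied 47.8% and 45.2% of the summed normalized counts of the 12 Pol II genes in the WT libraries, and 74.7% and 72.4% in the mutant-labelled libraries. The other 11 genes summed to 10090 and 9208 in WT and to 10644 and 10693 in the mutant-labelled libraries, with a median log2 difference of 0.23. Levels of different genes were compared per kilobase of the longest annotated transcript. On that scale Polr2a stood 5th of 12 in WT, with 1371 and 1125 normalized counts per kilobase, and 1st in the mutant-labelled libraries, with 4657 and 4164. The subunit with the highest level in WT was Polr2f, shared by polymerases I, II and III, with 2375 and 1854 normalized counts per kilobase, followed by Polr2g with 1807 and 2246. The WT ranges of these genes overlap, so their order is not settled. Polr2a in WT also overlapped Polr2e, with 1350 and 1180.

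**Figure D2:**
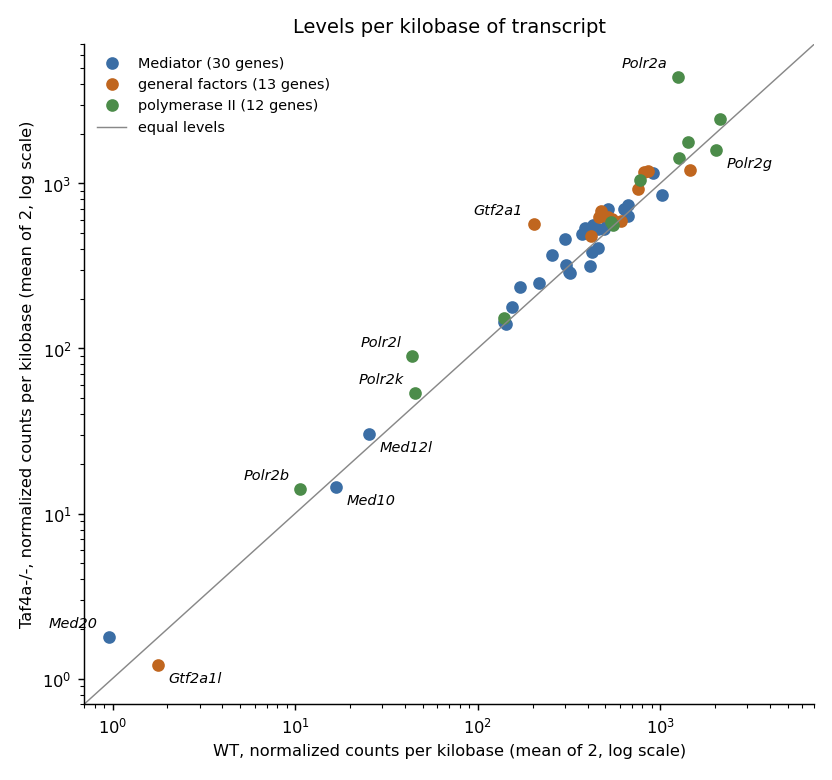
Mean normalized counts per kilobase of transcript in the 2 WT libraries (horizontal, log scale) against the 2 mutant-labelled libraries (vertical, log scale) for the 55 members, coloured by family. The line marks equal levels. Polr2a, at 1248 and 4411, and Gtf2a1, at 203 and 567, lie well above it.

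Polr2l was the other Pol II gene called. It encodes a small zinc-binding subunit shared by polymerases I, II and III, and occupies bases 148657759 to 148661031 of chromosome 7 in NCBIM37, minus strand. Its values were low, 64.9 and 80.0 normalized counts in WT and 146 and 150 in the mutant-labelled libraries. The genotypes did not overlap, and the log2 difference was 1.03 (standard error 0.26, adjusted p = 0.0317 from limma). The call was lost without any 1 of the 4 libraries, although the difference kept its direction, with log2 values from 0.88 to 1.18. A part of its transcript, 33.6%, also has a near-identical copy elsewhere in the genome, so reads could be divided between copies.

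The remaining 10 Pol II genes did not pass the test, and 2 of the 12, or 16.7%, were called higher against 11.3% of all genes. Polr2d, which forms the stalk of the enzyme with Polr2g, had 1406 and 1323 normalized counts in WT and 1735 and 1689 in the mutant-labelled libraries (log2 difference 0.33, standard error 0.12, adjusted p = 0.0803 from limma). Its partner Polr2g had 1568 and 1949 in WT against 1353 and 1433, a log2 difference of -0.33 (standard error 0.15, adjusted p = 0.138). Both stalk genes separated the genotypes, in opposite directions, where 34.5% of all genes did upwards and 36.6% downwards. Neither was called. Without WT replicate 1, whose value was the nearer to the mutant-labelled libraries, Polr2g was called lower.

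Polr2b, the gene of the other large subunit, which forms the catalytic centre with Polr2a, was listed at only 49.97 and 38.4 normalized counts in WT and 60.7 and 55.3 in the mutant-labelled libraries. This was the lowest level per kilobase of the family, 10.7 in WT. Of its annotated exons 81.6% are overlapped by another annotated gene, so the low value is uncertain and the ratio of the 2 large subunits was not computed. The same caution holds for the shared subunit Polr2k, with 23.7 to 34.3 normalized counts and copies of 68.3% of its transcript, and to a lesser degree for Polr2c, with copies of 24.6%. Polr2e, Polr2f and Polr2h, shared between the polymerases, had log2 differences between 0.12 and 0.23, Polr2c, Polr2i and Polr2j between 0.02 and 0.46, and none of these 6 passed the test. In all, 7 of the 12 separated the genotypes upwards and 1 downwards, where 34.5% and 36.6% of all genes did. Polr2b, Polr2k and Polr2l, with over 50% of exon sequence overlapped or over 30% of the transcript copied, were then set aside. Of the 9 Pol II genes left, only Polr2a was called higher, where 11.3% of all genes were.

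Of the 12 general factors tested, 5 (41.7%) were called higher, against 11.3% of all genes, and 0 lower. At an unadjusted p under 0.05, 6 were higher, where 18.8% of all genes were, and 0 lower. Voom called 4 higher, against 10.3% of all genes, and 0 lower. Without the variance trend, or without either mutant-labelled library, 1 of the 12 was called higher, in fits that called 5.06%, 3.69% and 3.69% of all genes higher. The median log2 difference was 0.28, with a range from -0.27 to 1.48. In 9 of the 12 both mutant-labelled libraries stood above both WT libraries, against 34.5% of all genes, and in 0 below, against 36.6%. The spread within a genotype was small, with a median absolute log2 difference between replicates of 0.12 in WT and 0.043 in the mutant-labelled libraries.

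TFIIA steadies the TATA-binding protein on DNA, and its large chain, cut into α and β after translation, is made from Gtf2a1. In NCBIM37 this gene spans bases 92794356 to 92828927 of chromosome 12, minus strand. It had 1056 and 1141 normalized counts in WT and 2948 and 3186 in the mutant-labelled libraries, so the genotypes were wide apart. The rise was 2.79-fold, or 1.48 on the log2 scale (standard error 0.12, adjusted p = 0.00140 by limma). Like that of Polr2a, it was called in all 10 other settings and without any 1 library. The gene of the small chain, Gtf2a2, had 802 and 942 in WT against 926 and 1009, which overlap (log2 difference 0.15, adjusted p = 0.455). Per kilobase, Gtf2a1 stood at 203 in WT against 541 for Gtf2a2, and at 567 against 600 in the mutant-labelled libraries. The germ cell paralogue Gtf2a1l was too low to test, with 2.63 and 3.12 normalized counts in WT and 3.92 and 0 in the mutant-labelled libraries. A value of 3 reads, between 2.63 and 3.32 normalized counts in these libraries, was taken as the floor, and the WT values do not exceed it.

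Gtf2b encodes TFIIB, the bridge between promoter and polymerase. Its values were 1096 and 1081 in WT and 1495 and 1522 in the mutant-labelled libraries, with little spread in either genotype (log2 difference 0.47, standard error 0.12, adjusted p = 0.0301 from limma). TFIIF, which escorts Pol II, has 2 chains, of which 1 was called. The large chain Gtf2f1 had 1404 and 1433 in WT and 2056 and 2031 in the mutant-labelled libraries (0.53, standard error 0.11, adjusted p = 0.0199), and the small chain Gtf2f2 had 870 and 912 against 878 and 864, which overlap (-0.03, with a sign that turned under equal totals and quantile normalization, standard error 0.13, adjusted p = 0.865). The difference between the chains was not tested. TFIIE, which recruits TFIIH, was not called. Its Gtf2e1 had 1509 and 1646 in WT against 1743 and 1922 (0.22, adjusted p = 0.230), and Gtf2e2, with the highest level per kilobase of the general factors at 1465 in WT, had 2002 and 2874 against 1917 and 2078 (-0.27, adjusted p = 0.322). The 2 WT values of Gtf2e2 lay further apart than the genotypes, and without WT replicate 1 it was called lower.

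TFIIH was represented by the 5 genes of its structural core, Gtf2h1 to Gtf2h5, and all 5 separated the genotypes upwards, as 34.5% of all genes did, with log2 differences between 0.16 and 0.54. Gtf2h3 had 1355 and 1166 normalized counts in WT and 1806 and 1840 in the mutant-labelled libraries (0.54, standard error 0.13, adjusted p = 0.0281 from limma). Gtf2h2 had 856 and 798 against 1123 and 1119 (0.44, standard error 0.12, adjusted p = 0.0448). The other TFIIH genes, listed apart by their names, are the helicases Ercc2 and Ercc3 and the kinase subunits Cdk7, Ccnh and Mnat1. Of these, Ercc3, whose product opens the promoter, rose from 1487 and 1550 to 2181 and 2077 (0.49, standard error 0.11, adjusted p = 0.0258). Ercc2 had 988 and 922 against 1321 and 1139 (0.36, adjusted p = 0.0950). The 3 kinase genes overlapped between genotypes, with differences from -0.12 to 0.03. Over the 10 TFIIH genes 3 were called higher and 0 lower, against 11.3% and 17.3% of all genes, with a median of 0.28.

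Calls of these smaller rises were lost in fits with 1 library left out, unlike those of Polr2a and Gtf2a1. Such fits leave 1 library in a genotype and estimate the spread from fewer libraries. A lost call therefore does not show that the rise rested on the library left out. Without WT replicate 2 the calls of Gtf2b, Gtf2h2 and Gtf2h3 were lost (adjusted p between 0.0576 and 0.0791), without mutant-labelled replicate 1 or 2 those of Gtf2b, Gtf2f1, Gtf2h2 and Gtf2h3 were lost (between 0.139 and 0.259), and without WT replicate 1 all 5 general factor calls remained. In each case the difference stayed above 0, from 0.39 to 0.64 for these 4 genes. With all 4 libraries, of the 10 other settings Gtf2h2 was called in 6 (adjusted p up to 0.102), Gtf2b in 8 (up to 0.0857), and Gtf2f1 and Gtf2h3 in 9 each.

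**Figure D3:**
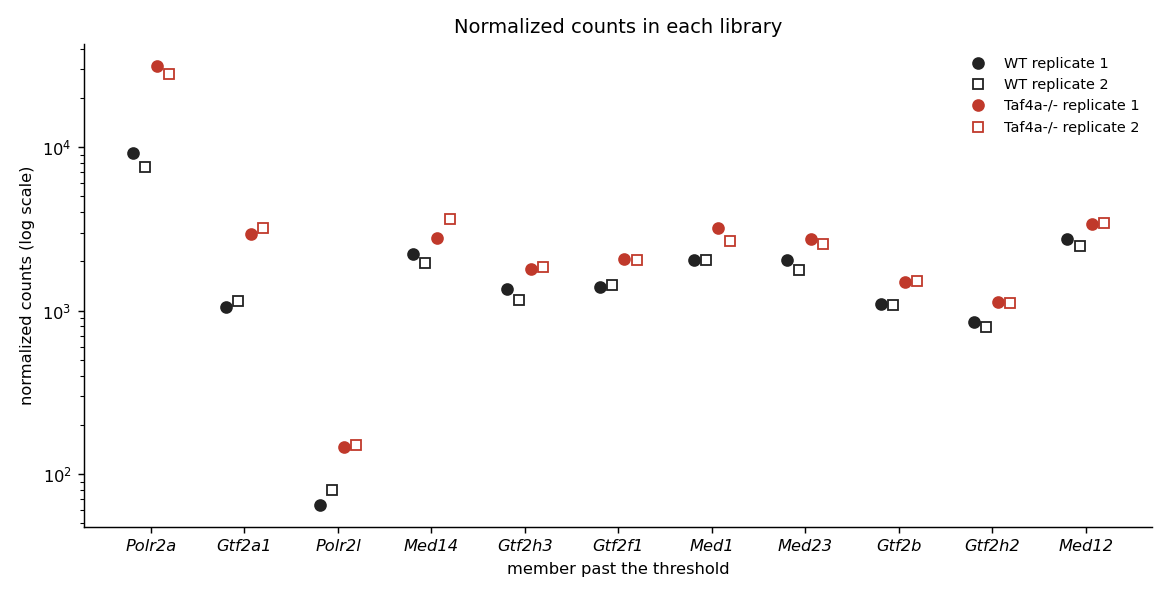
Normalized counts (log scale) in each of the 4 libraries for the 11 members called at an adjusted p under 0.05, in order of their log2 difference. For each of them both mutant-labelled libraries (red) lie above both WT libraries (black), by the widest margin for Polr2a and Gtf2a1 and by less than 1.5-fold on average for most of the others.

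Of the 29 Mediator genes tested, 4 (13.8%) were called higher, close to the 11.3% of all genes, and 0 lower. At an unadjusted p under 0.05, 10 were higher, where 18.8% of all genes were, and 0 lower. Voom called 3 higher, a share like the 10.3% of all genes, and 0 lower. The median log2 difference was 0.19 and the range ran from -0.39 to 0.61. The summed normalized counts of the 30 genes were 38050 and 36276 in WT and 44725 and 44798 in the mutant-labelled libraries, and Med13 supplied the largest share in each library, between 11.8% and 12.5%. In 17 of the 29 genes tested both mutant-labelled libraries stood above both WT libraries, and in 2, Med6 and Med10, below, where 34.5% and 36.6% of all genes did. For Med10, with 12.2 to 15.6 normalized counts in all libraries, 96.3% of the exon sequence is overlapped by another gene.

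Med14 encodes the scaffold that ties head, middle and tail together. Its values were 2222 and 1963 in WT and 2777 and 3639 in the mutant-labelled libraries, the largest difference of the family and also a wide spread between the latter (log2 difference 0.61, standard error 0.16, adjusted p = 0.0383 from limma). Med14 and Med12 are the X-linked members, and the libraries differed in sex-linked RNA. Xist, which coats the inactive X, had 6.14 and 7.27 normalized counts in WT and 217 and 6470 in the mutant-labelled libraries, while the Y-linked Ddx3y had 725 and 0 in WT and 164 and 0. Med14 was higher in the library with the most Xist RNA. The part of this in its value was not tested. The median of the 746 genes tested on the X chromosome was -0.01. Against each gene's mean over the libraries, the median of this chromosome was -0.07 in mutant-labelled replicate 1 and 0.05 in replicate 2. In WT it was -0.01 and 0.03. The part of these shifts in the values of Med14 and Med12 was not tested.

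The middle module touches the polymerase, and its Med1, a contact for nuclear receptors, had 2041 and 2045 in WT and 3217 and 2684 in the mutant-labelled libraries (0.52, standard error 0.13, adjusted p = 0.0315 from limma). The other 8 genes of the middle were not called, and the median of the 9 was 0.16. Med26, through which Mediator binds elongation factors, had 573 and 459 against 646 and 781, which separate the genotypes without passing the test (0.47, standard error 0.18, adjusted p = 0.102). Med21 had 618 and 952 in WT against 688 and 695, where the WT values enclose the others, and it was called lower without WT replicate 1.

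In the tail, Med23, a contact for activators downstream of growth factor signalling, had 2051 and 1768 in WT and 2749 and 2542 in the mutant-labelled libraries (0.47, standard error 0.13, adjusted p = 0.0395 from limma). The tail genes Med15, Med24 and Med25 also separated the genotypes upwards, as 34.5% of all genes did. Their log2 differences of 0.26, 0.41 and 0.34 did not pass the test, and Med16 overlapped at -0.12. The median of the 5 tail genes was 0.34. The head, which binds the polymerase most directly, had 0 calls among its 6 genes tested, 2 of them higher, where 18.8% of all genes were, and 0 lower at an unadjusted p under 0.05, and a median of 0.10. Voom called none of them either. Within the head, Med22 had the highest difference, from 2016 and 1592 to 2378 and 2546 (0.46, standard error 0.15, adjusted p = 0.0639), and Med11 the lowest, from 419 and 324 to 330 and 239, which overlap (-0.39, standard error 0.24, adjusted p = 0.254). Med6, of the head, had the highest mean level per kilobase of the Mediator genes in WT, 1027, though its libraries overlap those of Med25 on that scale (919 and 1134 against 963 and 867). It had 973 and 1201 normalized counts in WT against 845 and 950 (-0.27, adjusted p = 0.235). Med20, also of the head, was below the filter, with 4.38 and 6.23 in WT and 7.83 and 12.2 in the mutant-labelled libraries, and 79.3% of its exon sequence is overlapped by other genes. Med27 to Med30 stayed between -0.12 and 0.19. Of the Med29 transcript, 52.5% has a near-identical copy elsewhere in the genome, so its value is uncertain.

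The kinase module comes in paralogous forms, since Med12 or Med12l and Med13 or Med13l can each take 1 place beside cyclin C and Cdk8 or Cdk19. Med12, which activates the kinase, had 2724 and 2481 in WT and 3376 and 3433 in the mutant-labelled libraries (0.39, standard error 0.11, adjusted p = 0.0484 from limma), a call lost in 6 of the 10 other settings. Its paralogue Med12l had 255 and 264 against 289 and 331 (0.25, standard error 0.18, adjusted p = 0.335). Med13, which links the module to the rest of Mediator, had 4502 and 4321 against 5574 and 5545 (0.33, standard error 0.11, adjusted p = 0.0654), and Med13l had 2921 and 2759 against 2883 and 3097, which overlap (0.07, standard error 0.11, adjusted p = 0.652). Per kilobase Med12 stood at 375 in WT against 25.3 for Med12l, and Med13 at 418 against 305 for Med13l. Of the other kinase module genes, Ccnc, the cyclin, rose from 580 and 668 to 1021 and 1090 (0.76, standard error 0.14, adjusted p = 0.0139), Cdk8 had 1267 and 1103 against 1469 and 1502 (0.33, adjusted p = 0.103) and Cdk19 1225 and 1280 against 1031 and 1177 (-0.18, adjusted p = 0.321). Both kinase genes separated the genotypes, in opposite directions, where 34.5% of all genes did upwards and 36.6% downwards. Neither was called.

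Many of these Mediator calls were lost with 1 library left out, in fits that leave 1 library in a genotype. The losses do not show that a rise rested on the library left out. Med1 was lost without any 1 of the 4 libraries (adjusted p between 0.0658 and 0.272). Med14 was kept only without mutant-labelled replicate 1 (0.0357) and otherwise lay between 0.0684 and 0.257. Med12 and Med23 were kept only without WT replicate 1 (0.0290 and 0.0269), and otherwise lay between 0.0772 and 0.298. With all 4 libraries, of the 10 other settings Med1 was called in 9, Med14 in 8, Med23 in 7 and Med12 in 4 (adjusted p up to 0.131).

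Among Mediator genes the log2 differences were larger in genes with longer transcripts. Across the 29 tested, Spearman's rho between length and log2 difference was 0.71, against 0.45 over the 12 general factors, 0.44 over the 12 Pol II genes and 0.01 over all 16926 genes. The 14 Mediator genes shorter than 2547 bases had a median of 0.02 and 0 calls, and the 15 at or above it had a median of 0.33 and the 4 calls. Of all genes, split at their median length, 761 of the 8463 shorter ones and 1145 of the 8463 longer ones were called higher, with medians of -0.04 and 0.01. These are correlations across genes, which share the same 4 libraries and are not independent, and they are given as a description.

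**Figure D4:**
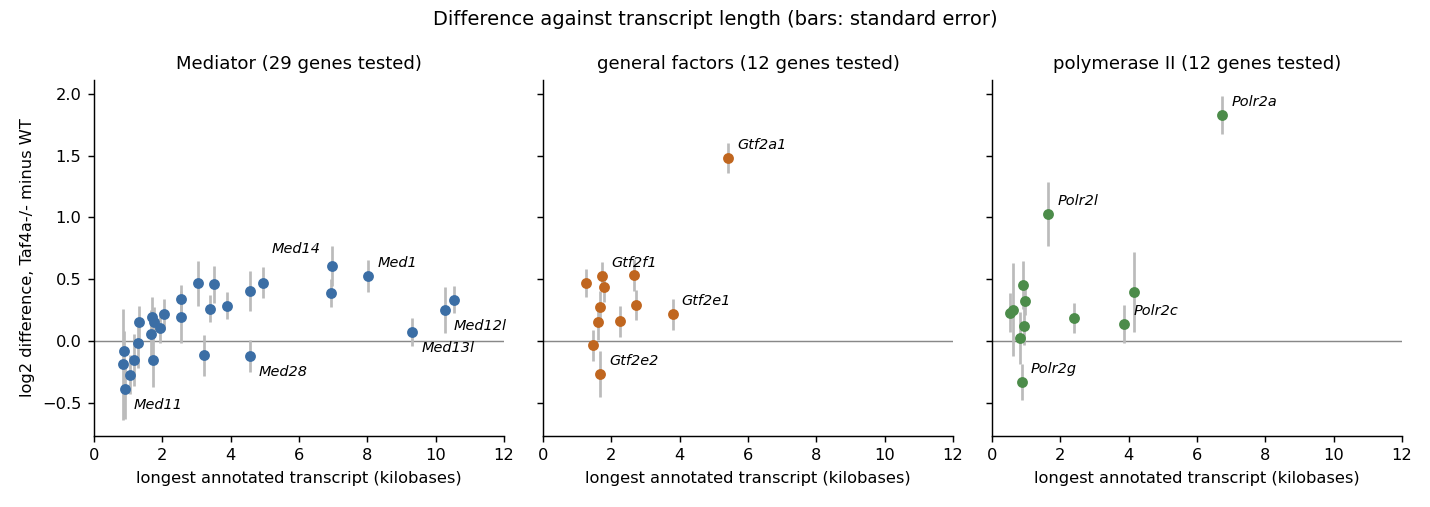
Log2 difference of each member tested (vertical, bars are standard errors) against the length of its longest annotated transcript in kilobases (horizontal), in 3 panels by family. Among Mediator genes, those under 2 kilobases scatter around 0 and most longer ones lie between 0.2 and 0.6, while Polr2a and Gtf2a1, both long, stand apart from the rest of their panels.

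The genes that act after the PIC, from lists chosen by function, were compared in the same fit. The calls of list genes, here and in the other paragraphs, were not followed through the other settings or with 1 library left out. Of 23 pausing and elongation factors, 7 (30.4%) were called higher and 0 lower, against 11.3% and 17.3% of all genes, with a median log2 difference of 0.32. Hexim1, which holds the elongation kinase P-TEFb inactive, had 1456 and 1109 normalized counts in WT and 3481 and 3092 in the mutant-labelled libraries (1.37, standard error 0.16, adjusted p = 0.00384 from limma). The kinase itself, Cdk9, had 1677 and 1438 against 1676 and 1908, which overlap (0.20, adjusted p = 0.306), and of its cyclins Ccnt2 was called (0.54, adjusted p = 0.0169) and Ccnt1 was not (0.35, adjusted p = 0.0565). The other genes called were Ctr9 and Leo1 of the PAF complex, Supt16h of the FACT histone chaperone, Supt5h of DSIF and Th1l of the pausing factor NELF, with differences between 0.42 and 0.56.

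Of 8 genes, for proteins that act on the Pol II tail and for Integrator subunits grouped with them, 3 (37.5%) were called higher and 0 lower, against the same shares of all genes. Cdk12, a kinase of the tail, rose from 2208 and 1993 to 4405 and 3711 (0.95, standard error 0.13, adjusted p = 0.00632 from limma), and Ints1 from 3150 and 2650 to 5239 and 4713 (0.78, standard error 0.14, adjusted p = 0.0112). Cdk13, the paralogue of Cdk12, had 3342 and 3155 against 3719 and 3888 (0.23, adjusted p = 0.170). Cpsf3l, an Integrator subunit, was the other gene called (0.48, adjusted p = 0.0326).

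The other nuclear polymerases offer a comparison for Polr2a. Of 8 genes of Pol I, 3 (37.5%) were called higher, where 11.3% of all genes were, and 0 lower, with a median of 0.21. They included both large subunits, Polr1a, with 2636 and 1758 in WT and 4316 and 3953 in the mutant-labelled libraries (0.94, standard error 0.20, adjusted p = 0.0207 from limma), and Polr1b, with 1547 and 1000 against 2461 and 2132 (0.88, adjusted p = 0.0311). The other gene of Pol I called was Polr1e (0.63, adjusted p = 0.0371). Of 11 genes of Pol III, 3 (27.3%) were called higher and 1 (9.09%) lower, where 11.3% and 17.3% of all genes were, with a median of 0.23, and here too both large subunits were among those higher, Polr3a at 0.66 (adjusted p = 0.0147) and Polr3b at 0.87 (adjusted p = 0.0215), beside Polr3c at 0.53 (adjusted p = 0.0235). The gene called lower was Polr3gl, with 266 and 366 in WT against 166 and 190 (-0.81, standard error 0.23, adjusted p = 0.0468), and its paralogue Polr3g, typical of stem cells, had 938 and 814 against 1098 and 1158 (0.37, adjusted p = 0.0903). The catalytic subunits of the 3 polymerases thus had log2 differences of 1.83, 0.94 and 0.66 in the order Pol II, Pol I and Pol III, and whether these differ from each other was not tested.

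**Figure D5:**
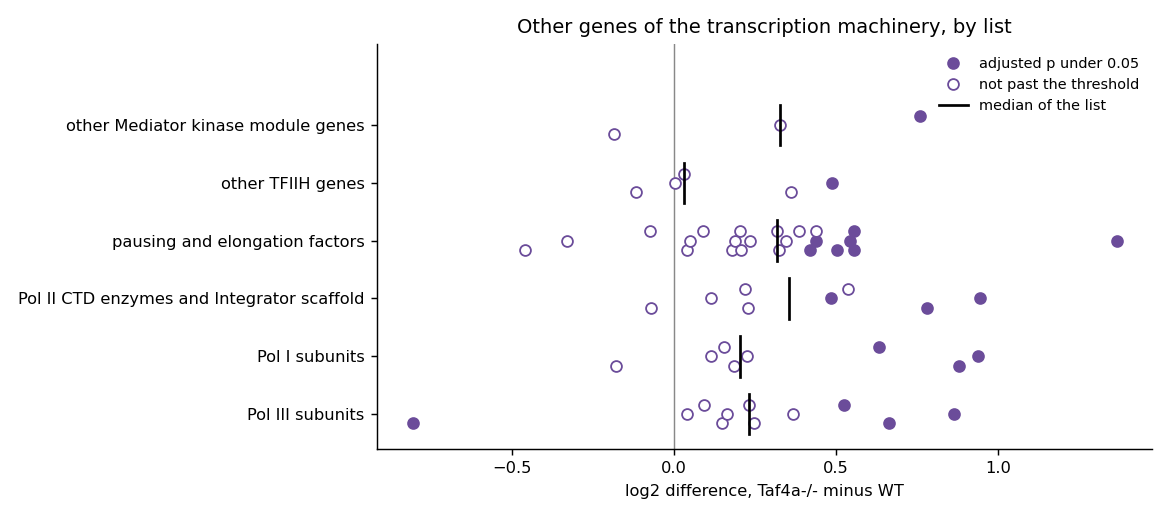
Log2 difference, Taf4a-/- minus WT, of the genes of 6 lists around the PIC, 1 list per line, with genes called at an adjusted p under 0.05 filled and the median of each list as a black bar. The medians lie between 0.03 and 0.36, Hexim1 is the point at 1.37, and Polr3gl, at -0.81, is the gene called lower.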

How the data were processed

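The authors deposited normalized counts per gene, that is reads divided by 1 factor per library. The submitters' processing notes name CASAVA 1.8, TopHat 1.3.3, HTSeq 0.5.3p1, DESeq and mm9. The annotation release, the counting mode and strandedness are not given in the sources used here, so overlapping genes and copies cannot be told apart. All deposited values were whole multiples of the value of 1 read (within 0.01), which gave the reads per library. Floors cover counting error only.

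The members and the lists were chosen with earlier results of these data known. The test was limma's (version 3.58.1, R 4.3.3), fitted with lmFit and moderated by eBayes with its trend option, on genes with a mean of at least 10 and on log2 of the value plus 1, a scale that understates the change of low genes, with Benjamini-Hochberg adjustment over 16926 genes. Named are the members called, the highest and lowest per kilobase of each family, paralogue pairs, Polr2a, Gtf2b, Med1, Med14 and Med26, members below the filter, Taf4a and called genes of the lists. Other members were named after their values were seen, to complete a module. On simulated reads with 200 genes changed among 16912 tested, this test called 40.8% of genes changed 1.5-fold, 90.0% at 2-fold and 100% at 4-fold. The simulation gave every gene and both genotypes the same spread, and changed a far smaller share of genes than was called in the data. In the data the median absolute log2 difference between replicates was 0.26 in WT and 0.16 in the mutant-labelled libraries. The shares recovered may therefore differ in the data. Copies were sequences of at least 97% identity over 50 bases or more, found with BLAST 2.17.0 in NCBIM37. Promoters are those of RefSeq on GRCm38.p6. Figures were drawn with matplotlib 3.10.9. Pseudocount, low-value filter, library scaling, variance trend and call threshold were each varied in turn, a replicate block was added, and single libraries were left out.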

Additional observations from a re-analysis of the deposited data

How the results depend on the processing

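None of the 15 members followed through every alternative changed sign. Of the 53 tested, 8 with differences within 0.1524 of 0 did. They were Gtf2f2 and Med29 with equal totals, and these and Med30 and Med31 with quantile normalization. Without 1 library, Gtf2f2, Med16, Med18, Med21, Med29, Med30, Med31 or Polr2i changed sign. Polr2a, Gtf2a1 and Polr2l were called, at an adjusted p under 0.05, in all 10 other settings with 4 libraries. Without a filter on low values, 2 Mediator genes were called higher, where 6.99% of all genes were. Without the variance trend, 0 Mediator genes and 1 general factor were, where 5.06% of all genes were. With the replicate number as a block, 1 Mediator gene and 3 general factors were called higher, and over all genes 1536 (9.07%) were higher and 2657 lower. The labels do not say that equal numbers share a source, and the correlation of same-numbered libraries was 0.01. Same-numbered libraries were, however, alike in Y-linked RNA. Ddx3y had 725 (WT) and 164 (mutant-labelled) normalized counts in the replicate 1 libraries and 0 in both replicate 2 libraries. The block therefore also separates libraries with and without Y-linked RNA. At an adjusted p under 0.01, 0 Mediator genes, 1 general factor and 1 Pol II gene were called, where 1.96% of all genes were called higher, and under 0.1, 7 Mediator genes, where 17.2% were. The 6 members over 50% overlapped or over 30% copied were also left out, a choice made after the data were seen. Of the 9 Pol II genes that remained, 1 was called higher, where 11.3% of all genes were. With equal totals the medians were 0.25 for Mediator and 0.34 for general factors, and with quantile normalization 0.29 and 0.33. Equal totals moved the median of all genes to 0.05 and quantile normalization to 0.11, where 2624 genes were higher and 2460 lower (51.6% higher, against 39.4%). Without the variance trend 856 genes were higher and 1741 lower. The causes of these changes were not tested.

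Leaving out 1 library, which assumes that the lone library varies like the other genotype, gave 0 to 6 Mediator genes higher and 0 to 1 lower, 1 to 5 general factors higher and 0 to 1 lower, and 1 to 3 Pol II genes higher and 0 to 1 lower. The medians lay from 0.14 to 0.22, from 0.27 to 0.33 and from 0.14 to 0.33. In each of these fits more of all genes were called lower than higher. Over all genes, 624 (3.69%) to 2476 (14.6%) were called higher. The calls of 8 members were lost without WT replicate 2, of 8 without Taf4a-/- replicate 1, of 9 without Taf4a-/- replicate 2 and of 3 without WT replicate 1. Of the 11 calls, limma's voom on the recovered reads, added after the data were seen, did not make those of Gtf2h2 and Med12. The planned tests with edgeR and DESeq2 were not run. With 2 libraries per genotype, changes near 1.5-fold were often missed on simulated reads, so a member not called is not shown to be equal.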
